A study of Mus musculus with 4 samples.

Results

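The Cdkn2a and Cdkn2b locus is described here as 1 Mb of mouse chromosome 4, from 88300001 to 89300000 in the mm8 build, cut into 250 windows of 4 kb and 50 tiles of 20 kb. The 250 windows are part of 657686 such windows on chromosomes 1 to 19, X and Y. The region was chosen by position, with both genes placed near 88.7 to 88.9 Mb, and the 200 kb from 88700001 to 88900000 is called the gene interval below. All libraries came from MDER 10T cells, a mouse fibroblast line that carries MyoD1 under estrogen control per the title of the series, grown in DMEM/F12 without phenol red and with 10% FCS. No estrogen treatment, age or further allele is named in the labels. Chromatin was immunoprecipitated with antibodies against H3K4me3, H3K27me3 or H3K9me3, and whole-cell extract (WCE) was sequenced without immunoprecipitation. There are 4 groups of 1 library each and hence no measure of spread between replicates. A test on reads here compares libraries, never conditions, and pooled reads do not separate alleles or cells.

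Cdkn2a encodes unrelated proteins in different reading frames. p16Ink4a inhibits the cyclin D kinases that inactivate the retinoblastoma protein, and p19Arf (the mouse ARF) protects p53 by restraining Mdm2. Cdkn2b encodes p15Ink4b, a close relative of p16Ink4a. In cultured mouse fibroblasts the locus is normally held silent by Polycomb complexes, which deposit H3K27me3, and is induced as the cells age. Immortal fibroblast lines often delete or silence the locus, or inactivate p53. H3K4me3 marks active or poised promoters, and H3K9me3 marks heterochromatin. The first question for this region was therefore whether its DNA is present in the libraries at all.

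No gene table of the mm8 build was used here, so no window was assigned to a gene, and neither the fibroblast label nor other genes of the retinoblastoma and p53 pathways could be checked. In the RefSeq table of GRCm38.p6, another build, Mtap, Cdkn2a, Cdkn2b and Dmrta1 follow each other in this order of rising coordinate among protein-coding genes. Mtap encodes an enzyme of methionine salvage and Dmrta1 a DM-domain transcription factor. Cdkn2a has separate starts, with the upstream start giving the p19Arf transcript and the downstream start the p16Ink4a transcript.

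The RefSeq promoters of both genes, each 250 bases before to 50 after an annotated start, are shown for their CG content and because the spacing of these starts is set beside that of the H3K4me3 peaks further on. H3K4me3 is typically found at CpG-rich starts, and every CG is in capitals. All lie on the minus strand of GRCm38.p6 and are written 5′ to 3′.
Cdkn2a, upstream start, chr4:89294570-89294869: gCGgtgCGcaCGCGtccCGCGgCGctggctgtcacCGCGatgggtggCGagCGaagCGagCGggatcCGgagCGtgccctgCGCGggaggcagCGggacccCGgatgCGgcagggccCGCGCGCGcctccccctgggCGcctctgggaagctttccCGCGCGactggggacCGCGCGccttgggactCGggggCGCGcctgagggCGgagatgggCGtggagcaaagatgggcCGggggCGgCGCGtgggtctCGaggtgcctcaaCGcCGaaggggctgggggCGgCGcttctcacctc
Cdkn2a, downstream start, chr4:89282143-89282442: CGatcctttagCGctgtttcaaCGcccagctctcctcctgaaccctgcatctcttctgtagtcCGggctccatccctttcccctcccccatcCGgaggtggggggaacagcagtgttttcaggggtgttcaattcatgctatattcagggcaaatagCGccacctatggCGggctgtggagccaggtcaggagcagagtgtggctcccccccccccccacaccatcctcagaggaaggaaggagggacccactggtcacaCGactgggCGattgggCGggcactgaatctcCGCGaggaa
Cdkn2b, chr4:89310983-89311282: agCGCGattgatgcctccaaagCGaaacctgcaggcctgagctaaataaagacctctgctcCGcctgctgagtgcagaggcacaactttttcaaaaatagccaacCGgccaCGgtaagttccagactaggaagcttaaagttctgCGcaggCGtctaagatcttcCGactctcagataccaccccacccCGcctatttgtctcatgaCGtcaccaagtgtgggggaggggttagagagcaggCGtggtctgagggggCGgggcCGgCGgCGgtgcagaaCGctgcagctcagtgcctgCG
The letters CG, which read the same on both strands, occurred 45 times at the upstream Cdkn2a start, 12 times at the downstream start and 18 times at the Cdkn2b start. Of 32851 RefSeq promoters of 300 bases, with a median of 7, 1.93% held at least 45, 39.6% at least 12 and 29.7% at least 18. A count of letters is a description and shows no mark.

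The 4 libraries held 2101444 to 3086567 autosomal reads with 1 reported position after repeated positions were collapsed. In the 1 Mb region they held 1086 H3K4me3, 453 H3K27me3, 394 H3K9me3 and 739 WCE reads. Repeated positions made up 6.35 to 9.01% of region reads before collapsing. The median of autosomal 20 kb tiles with a read in any library was 22 WCE reads and 69 reads of all 4 libraries pooled, and a 4 kb window of the region held a median of 2 WCE reads.

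The gene interval was not lost as a whole: all 4 libraries had reads in it, and its longest stretch without any read was 50 kb. Shorter stretches without reads lay in its lower part, among them 9530 bp from 88716855 to 88726385. Loss of some copies of the DNA, in all cells or in some, cannot be told apart from a lower read density of other origin. The interval held 160 H3K4me3, 51 H3K27me3, 32 H3K9me3 and 71 WCE reads. A tile was called read-poor when its count was at or below 0.1 of the autosomal median and a one-sided exact binomial test against an even spread gave an adjusted p under 0.05 over 123130 autosomal tiles. In WCE, 4 of the 50 tiles of the region were read-poor, against 6.02% of autosomal tiles. In the pooled libraries 3 were, against 5.6% of autosomal tiles. These shares lie near the background, so their number is not a result about the locus. Of the tiles called in WCE, those at 88980001 and 89100001 held 2 WCE reads each and were not called against the chromosome 4 median, which left 2.

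Within the gene interval the read-poor tiles were the neighbours at 88800001 and 88820001. The tile at 88800001 held 0 reads in every library, which allows up to 3 WCE reads or 0.136 of the WCE median. The tile at 88820001 held 1 H3K4me3, 1 H3K27me3, 0 H3K9me3 and 0 WCE reads, 0.029 of the pooled median with an exact Poisson interval of 0.242 to 7.22 reads. Both were called in WCE (adjusted p 2.42e-10, binomial test with Benjamini-Hochberg adjustment) and in the pool (3.74e-40 and 1.46e-36). All other tiles of the interval held reads in WCE, from 3 at 88700001 to 17 at 88760001. The tile at 88700001 had 8 pooled reads or 0.116 of the pooled median, just outside the limit of 0.1, and that at 88720001 had 14, or 0.203. The third read-poor tile of the pool, at 89100001, held 1 H3K4me3, 1 H3K27me3, 0 H3K9me3 and 2 WCE reads and lay above the gene interval.

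**Figure D1:**
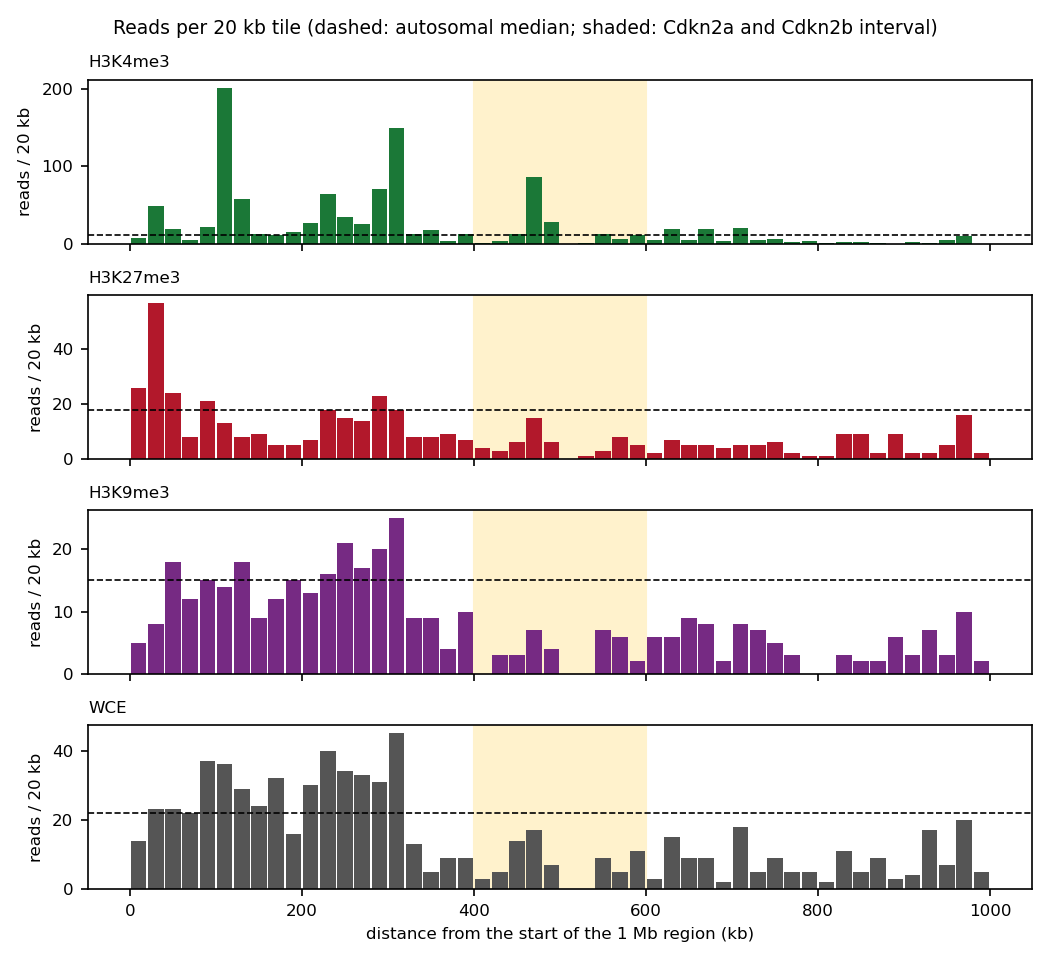
Reads per 20 kb tile in each library (vertical axis) against the distance in kb from the start of the 1 Mb region (horizontal axis). Dashed lines give the autosomal median of each library and shading marks the gene interval, where the pair of adjoining tiles from 88800001 to 88840000 held 2 reads of 4 libraries.

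The empty stretch was placed by its nearest reads, so its edges are no finer than the read density there. The last pooled read before it lay at 88788028 and the next at 88838078, a distance of 50050 bp. In single libraries the same distance measured 51448 bp (H3K4me3), 51338 bp (H3K27me3), 53991 bp (H3K9me3) and 57225 bp (WCE). At the read density of the rest of the interval, 23.7 WCE reads would have fallen there. The count of 0 allows at most 12.7% of that density in WCE, for counting error only and for a stretch picked because it was empty. Reads that match 2 places, which the files list apart, were also absent from it. No other distance between neighbouring pooled reads in the region exceeded 15274 bp, which ran from 89282175 to 89297449.

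The length of this stretch was not unique. On the autosomes, 291 distances between neighbouring pooled reads, this one included, were at least as long. From 45000 to 49999 bp there were 23 such distances, 4.6 per 1000 bp of length. From 50000 to 50999 bp there were 42, and from 51000 to 54999 bp 30, or 7.5 per 1000 bp. The stretch therefore belonged to a class of read-free stretches of just over 50000 bp that was 9.13 times as dense as the class below it. That class was set after the data were seen, is narrower than the others and counts the stretch itself. Whether mm8 holds known sequence at these places was not tested, and missing sequence in the assembly, sequence that the alignment drops and DNA lost from the cells cannot be told apart from the reads at this stretch alone. Runs of read-poor tiles of at least 40 kb, the length of this one in whole tiles, numbered 380 in the pool on the autosomes outside chromosome starts.

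**Figure D2:**
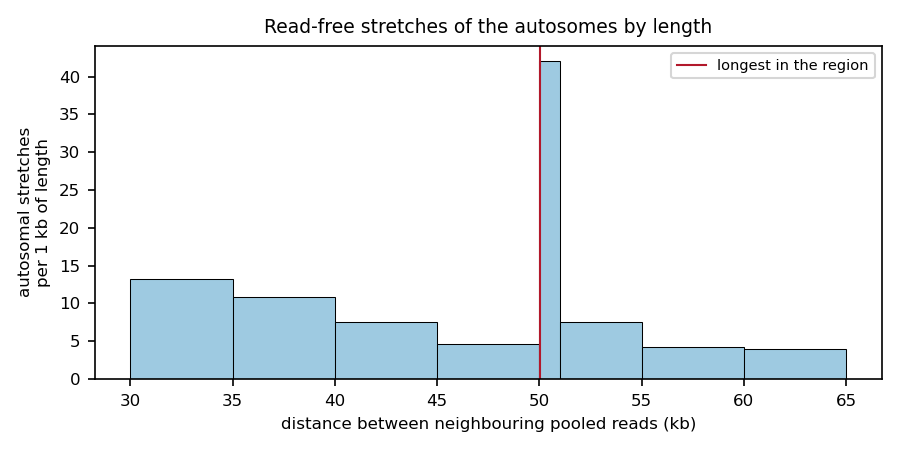
Autosomal stretches between neighbouring pooled reads, as their number per 1 kb of length (vertical axis) against their length in kb (horizontal axis). The red line marks the stretch of 50050 bp in the gene interval, which falls in the class from 50000 to 50999 bp that holds 42 stretches.

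Read density in WCE was lower in the upper blocks of the region than in the lower ones and stayed low above it. In 100 kb blocks, WCE counts from 88300001 upward were 119, 137, 168, 81, 46, 25, 38, 42, 30 and 53, where the autosomal median was 114. The blocks from 88700001 and 88800001 contain the empty stretch, the latter 38.1 kb of it, and had 0.404 and 0.219 of that median, or 0.458 and 0.354 per base without the stretch. The 4 blocks above them had 0.263 to 0.465, and 3.55 to 13.7% of autosomal blocks with a read had fewer WCE reads. The block just below the region, with 33 WCE reads, was also low. The lower density was not limited to the genes, because the next 1 Mb above the region had 500 WCE reads and the 1 Mb below it had 1071. Per kb, the interval without its empty stretch had 0.474 WCE reads, against 0.407 in the rest of the region above it and 1.26 in the part below. Its density was 0.43 of the autosomal median. Of the 50 tiles, 27 were at or below 0.5 of the WCE median with an adjusted p under 0.05, against 22.8% of autosomal tiles, and 24 were so in the pool, against 26.7%. The part that copy number, base composition and mappability have in this difference was not tested.

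**Figure D3:**
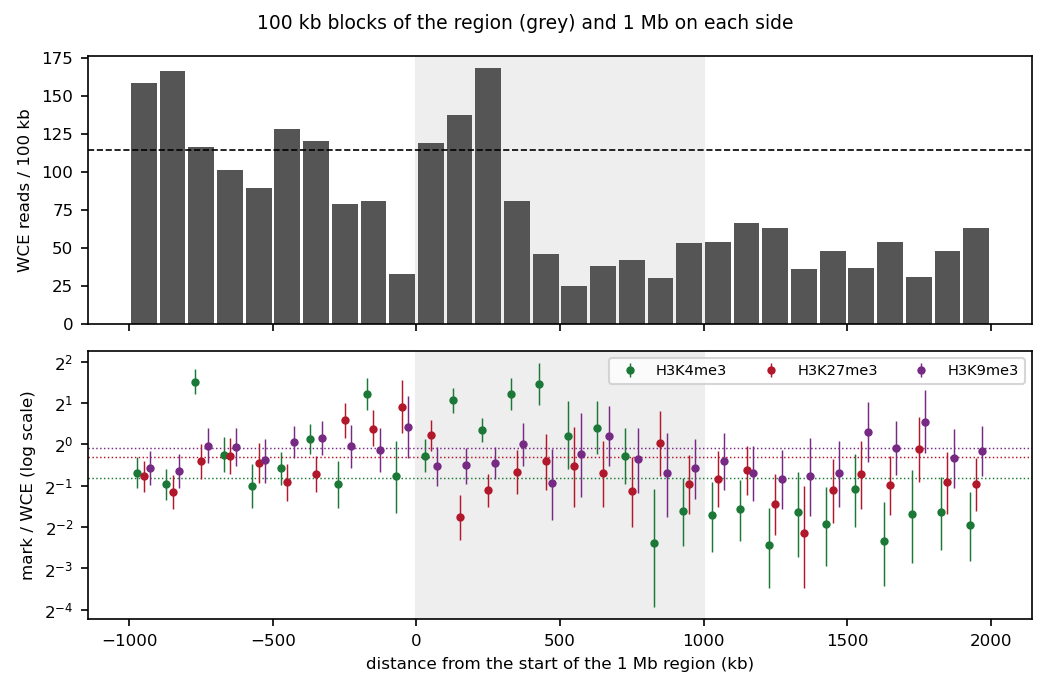
WCE reads per 100 kb block (upper panel; dashed line, autosomal median) and ratios of each mark to WCE on a log scale with 95% exact intervals (lower panel; dotted lines, autosomal medians), against the distance in kb from the start of the region. The 10 blocks of the region are shaded. WCE ranges within them from 168 reads to 25, the latter in the block with most of the empty stretch. Among the shaded blocks H3K4me3 is highest, at 2.73, in the block that starts at 88700001, while the unshaded block at 87500001 has 2.85.

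Summed over the tiles that were not read-poor, H3K4me3 lay above WCE, and H3K27me3 and H3K9me3 lay below it. Over the 47 tiles (940 kb) that were not read-poor in the pool, 1084 H3K4me3 and 737 WCE reads gave a depth-scaled ratio of 1.42 (95% exact interval 1.29 to 1.56), above 89.8% of 2191 autosomal 1 Mb regions. The H3K27me3 ratio was 0.621 (0.551 to 0.699), above 16.0% of them, and the H3K9me3 ratio 0.757 (0.669 to 0.857), above 11.7%. Those regions had median ratios of 0.853 (H3K4me3), 0.912 (H3K27me3) and 0.960 (H3K9me3). Median ratios of autosomal 100 kb blocks lay lower, at 0.570 (H3K4me3), 0.806 (H3K27me3) and 0.945 (H3K9me3), so a ratio under 1 does not by itself set a block apart. Ratios scaled to those medians were 2.49, 0.770 and 0.802 in the same order, and no direction turned. The H3K4me3 excess was not even along the region. By autosomal totals its ratio was 1.555 (1.39 to 1.741) in the 400 kb below the gene interval and 0.663 (0.516 to 0.848) in the 400 kb above it. Part of the sum lay in a few windows: the 12 kb from 88404001 alone held 169 H3K4me3 and 20 WCE reads. A ratio without such windows was not computed.

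A 4 kb window was called for a mark when a one-sided exact binomial test against WCE gave an adjusted p under 0.05 over the whole genome and the ratio was at least 2. For H3K4me3, 10 of 203 tested windows of the region were called (4.93%), against 2.33% of windows in the genome. For H3K27me3, 1 of 209 was called (0.478%), against 0.624%. No window was called for H3K9me3 out of 205, against 0.0195% of windows in the genome, and its smallest adjusted p was 1, at up to 10 H3K9me3 reads per window.

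Inside the gene interval, H3K4me3 was called in 2 of 34 windows and neither of the other marks in any of 36 (H3K27me3) and 33 (H3K9me3). The window from 88764001 to 88768000 held 63 H3K4me3, 2 H3K27me3, 2 H3K9me3 and 7 WCE reads. Its H3K4me3 ratio was 8.68 (3.98 to 22.5; adjusted p 2.35e-10, binomial test). The window from 88780001 to 88784000 held 26 H3K4me3, 1 H3K27me3, 2 H3K9me3 and 6 WCE reads, a ratio of 4.18 (1.68 to 12.4; adjusted p 0.0173). Together they held 89 of the 160 H3K4me3 and 13 of the 71 WCE reads of the interval, a difference that the choice of called windows fixes. Both are modest in depth: 31.4% of the 13533 called H3K4me3 windows of the genome held fewer than 63 H3K4me3 reads, and 2.16% fewer than 26. In ratio the former stood above 74.3% of called windows and the latter above 19.3%. The 26 reads at 88780001 were close to the 24 that a window with 6 WCE reads needed, and this call was lost at an adjusted p under 0.01.

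**Figure D4:**
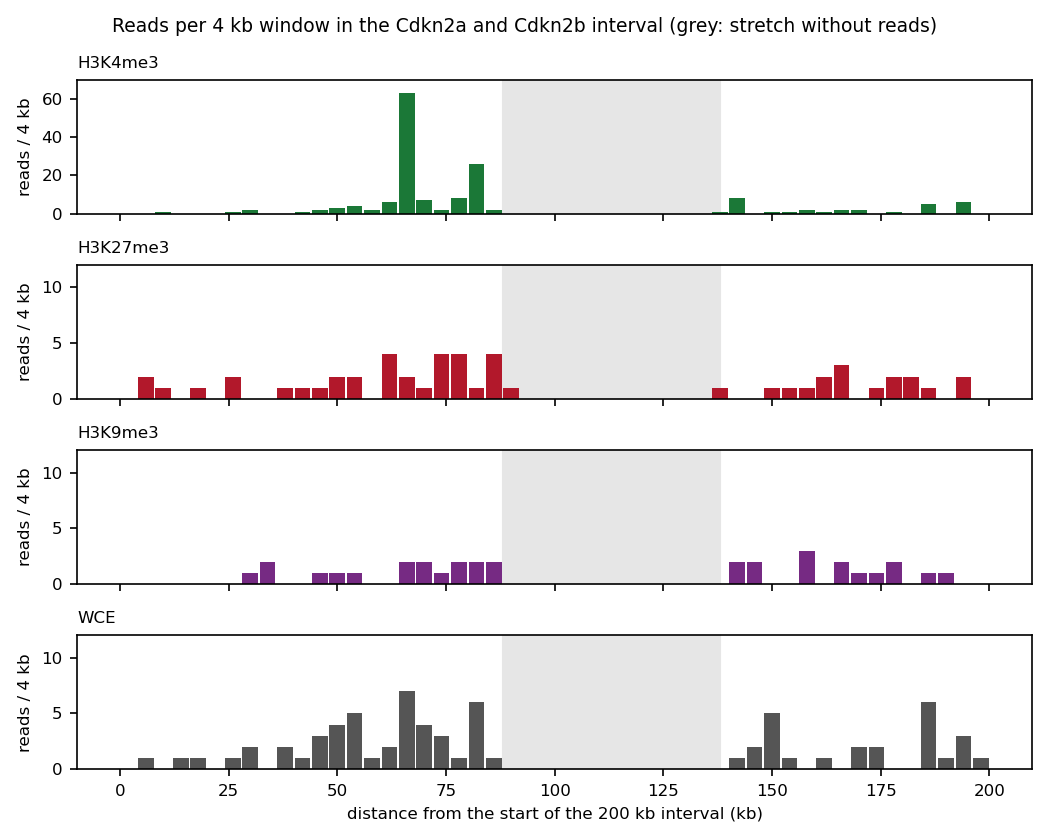
Reads per 4 kb window of the gene interval in each library (vertical axis, scaled to each library's range: to 70 for H3K4me3 and to 12 for the others) against the distance in kb from its start at 88700001. The grey stretch has no reads, and on its lower side the H3K4me3 bars of 63 and 26 reads are the windows that were called.

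Windows between and beside these were not called for any mark. From 88748001 to 88764000, just below the stronger window, there were 15 H3K4me3 and 12 WCE reads (ratio 1.21, 0.527 to 2.82). Within it, the window at 88752001 held 4 H3K4me3, 2 H3K27me3, 1 H3K9me3 and 5 WCE reads, a ratio of 0.772 (0.153 to 3.59) for H3K4me3. The 12 kb between the called windows held 17 H3K4me3 and 8 WCE reads (2.05, 0.838 to 5.49). These 3 intervals include 1, and at a few WCE reads per window a ratio several times higher than 1 would also not be detectable. Within the 12 kb, the window at 88776001, beside the called one, held 8 H3K4me3 reads and 1 WCE read, a ratio of 7.72 (1.03 to 342). It was not called, since 13 H3K4me3 reads were needed there. From 88764001 to 88784000, which spans both called windows, H3K27me3 had 12 reads against 21 for WCE, a ratio of 0.58 (0.26 to 1.23). The windows at 88776001, inside this span, and at 88784001, just above it, each held 4 H3K27me3 reads and 1 WCE read. Their H3K27me3 ratio of 4.06 (0.402 to 200) is hardly bounded, and 15 H3K27me3 reads were needed for a call there. With 7 WCE reads a window needed 28 H3K27me3 reads to be called, and the window at 88764001 held 2. The median called H3K27me3 window of the genome held 34.

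Spacing offers a comparison that needs no shared coordinates. In 500 bp tiles, H3K4me3 peaked at 88766501 (22 reads, 2 WCE) in the stronger window of the interval and at 88782001 (14 reads, 1 WCE) in the weaker, 15.5 kb apart. In the RefSeq table the upstream Cdkn2a start and the Cdkn2b start, the sequences printed above, lie 16.4 kb apart in GRCm38.p6. The downstream Cdkn2a start lies 12.4 kb from the upstream one on the side of lower coordinates. On that side in mm8, the windows from 88748001 to 88760000 held 3, 4 and 2 H3K4me3 reads and 4, 5 and 1 WCE reads. The window of the region with most H3K4me3 reads, from 88608001 to 88612000, peaked at 88608501, 158 kb below the peak at 88766501. The RefSeq start of Mtap lies 157.2 kb below the upstream Cdkn2a start. These pairs were picked from all distances between the peaks of the region and between the starts, and other pairs also came close. The peaks at 88409001 and 88422001 lay 13 kb apart, near the 12.4 kb between the Cdkn2a starts. Those at 88608501 and 89016001 lay 407.5 kb apart, where the downstream Cdkn2a start and the Dmrta1 start lie 406 kb apart. That distance runs across the empty stretch, where the mm8 sequence was not checked, while those of 15.5 and 158 kb lie below it. The peaks set against Cdkn2a starts in these other pairs lie below the gene interval, so they offer no rival place for Cdkn2a. They show only that near matches of distance also occur outside the interval. A near match of distances by itself does not identify a start. The distances are set side by side as a description, from different builds and with peaks placed only to 500 bp, and no window is assigned to a gene by them. The empty stretch began 6.03 kb above the peak at 88782001.

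**Figure D5:**
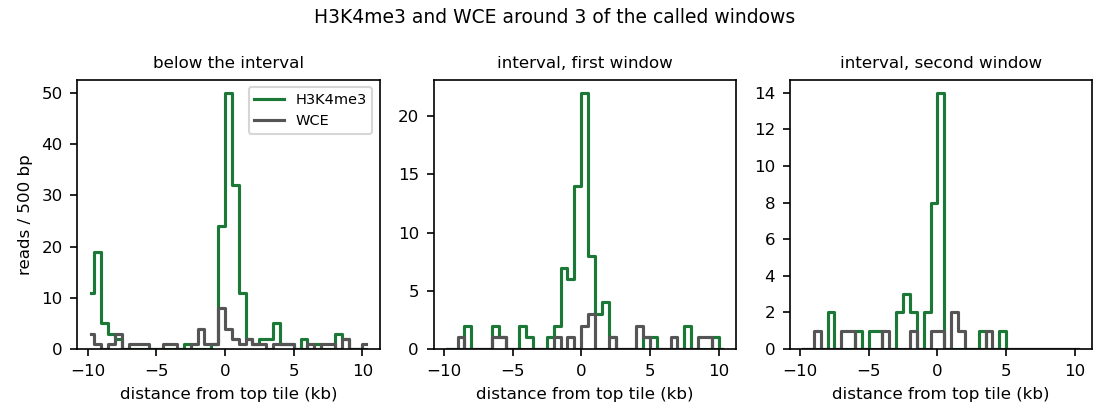
H3K4me3 and WCE reads per 500 bp tile (vertical axis) against the distance in kb from the tile with most H3K4me3 reads (horizontal axis), for the called window at 88608001 and for those of the gene interval at 88764001 and 88780001. The H3K4me3 maxima are 50, 22 and 14 reads, and WCE does not exceed 8 in any tile of these profiles.

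The remaining called windows lay on both sides of the interval. At 88608001 there were 124 H3K4me3, 7 H3K27me3, 8 H3K9me3 and 19 WCE reads, an H3K4me3 ratio of 6.30 (3.87 to 10.8; adjusted p 1.92e-17, binomial test). Its H3K27me3 ratio was 0.374 (0.133 to 0.929), below WCE. The window at 88596001, with 45 H3K4me3 and 7 WCE reads, had a ratio of 6.20 (2.78 to 16.3). Further down, 3 adjoining windows from 88404001 to 88416000 formed the only H3K4me3 stretch of the region longer than 4 kb, with 169 H3K4me3, 8 H3K27me3, 10 H3K9me3 and 20 WCE reads (ratio 8.15, 5.11 to 13.7). Its middle window had the highest ratio of the region, 25.7 (8.49 to 127), with 80 H3K4me3 and 3 WCE reads. That ratio was 11.03 against the larger of WCE and its mean over 20 kb, and 14.7 against a uniform background, where the window at 88608001 was higher at 22.8. The window at 88420001 held 46 and 9 (4.93, 2.39 to 11.5). Above the interval, the window at 89016001 was called from 16 H3K4me3 and 2 WCE reads (7.72, 1.81 to 69.2; adjusted p 0.0368), the fewest that a window with 2 WCE reads could be called on. This call was lost at an adjusted p under 0.01, and against the larger of WCE and its mean over 20 kb (ratio 5.14, adjusted p 0.126).

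The only window called for H3K27me3 lay at the lower end of the region, and 1 call of 209 is near the genome share. With 1 kb windows none was called. The window from 88332001 to 88336000 held 5 H3K4me3, 26 H3K27me3, 1 H3K9me3 and 3 WCE reads, an H3K27me3 ratio of 8.80 (2.70 to 45.4; adjusted p 0.00263, binomial test). The ratio was 5.28 (adjusted p 0.0281) against the larger of WCE and its mean over 20 kb, and 5.02 against a uniform background. The window adjoined a window called for H3K4me3, at 88336001, with 39 H3K4me3, 15 H3K27me3, 4 H3K9me3 and 12 WCE reads (H3K4me3 ratio 3.14, 1.61 to 6.58). The 1 H3K27me3 call did not coincide with an H3K4me3 call, and 1 call is too few to describe an overlap of these marks. Among the 100 kb blocks of the region, H3K27me3 was highest from 88300001 (ratio 1.16, above 78.7% of 23277 autosomal blocks with at least 20 WCE reads). It was lowest from 88400001 (0.296, above 0.554%). Just below the region, the blocks from 88000001, 88100001 and 88200001 had higher ratios of 1.49, 1.30 and 1.88, the last on 33 WCE reads. In the block from 88700001, the lower part of the gene interval, the H3K27me3 ratio was 0.750 (0.467 to 1.195), from 34 H3K27me3 and 46 WCE reads. In the block from 88800001, its upper part, the ratio was 0.690 (0.350 to 1.33), from 17 and 25 reads. These values stood above 43.5 and 35.8% of autosomal blocks, but with intervals this wide the place of either block in the genome is not known closely.

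H3K4me3 followed another course along the region. It was 0.827 of WCE in the lowest block, 2.09, 1.27 and 2.31 in the next ones, 2.73 in the block from 88700001 (above 98.5% of autosomal blocks) and 1.16 in that from 88800001. It was 1.32 in the block from 88900001, 0.827 in that from 89000001 and 0.193 in that from 89100001, with 6 H3K4me3 and 30 WCE reads, above 0.833% of autosomal blocks. In the last block, from 89200001, it was 0.328 (0.181 to 0.568), with 18 H3K4me3 and 53 WCE reads. The 1 Mb above the region had 149 H3K4me3 and 500 WCE reads, a ratio of 0.287 (0.238 to 0.346), and the 1 Mb below it 1.03 (0.952 to 1.13). Within the 1 Mb below, the block from 87500001 had 2.85, higher than any block of the region. H3K9me3 had a ratio of 0.524 in the block from 88700001, above 2.72% of autosomal blocks but resting on 17 H3K9me3 and 46 WCE reads, and 0.850 in the block from 88800001. In the other blocks of the region it ranged from 0.614 (0.294 to 1.213) from 89100001 to 1.16 (0.696 to 1.91) from 88900001. The interval of the block from 88700001, 0.282 to 0.931, overlaps both. The gene interval as a whole had an H3K4me3 ratio of 2.17 (1.63 to 2.92), an H3K27me3 ratio of 0.729 (0.499 to 1.06) and an H3K9me3 ratio of 0.639 (0.407 to 0.982).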

How the data were processed

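Per the file headers, the authors aligned reads to mm8 with Bowtie (e 70, k 2, m 2, n 2, l 36). The submitters' processing notes name Bowtie too. Each deposited file is a list of signed positions, 1 per read, in which reads of 1 and of 2 reported positions stand apart, and reads with more places were dropped. Per the labels' protocols, chromatin was sheared to a mean of 500 bp and amplified for 18 cycles. Reads with 1 position were collapsed to 1 per signed position and moved 60 bp along their strand. Ratios are scaled by autosomal totals, with 95% Clopper-Pearson intervals that cover counting error only, since PCR reads are not independent molecules. p-values are Benjamini-Hochberg adjusted over all tiles or windows. With 0 WCE reads the ratio uses a floor of 3. All called windows of the region are named, up to 10 per mark, with the read-poor tiles and their neighbours. The members, tiles and gene lists were chosen with earlier results of these data known. Empty-stretch lengths, spacings and 500 bp tiles were added after the data were seen. The procedures were tested on simulated data. Alternatives changed repeated reads, tile size, thresholds, reference, scaling, shift and control. Computation used scipy 1.17.1 with numpy 2.4.6 under Python 3.11.15, and plots matplotlib 3.10.9.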

Additional observations from a re-analysis of the deposited data

How the results depend on the processing

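The longest read-poor run of the region, 40 kb from 88800001, measured 40 to 50 kb under the alternatives except at limits of 0.25 of the median, where a run of 60 kb from 89060001 was longer, and of 0.5, where 240 kb from 89020001 was called. The count of read-poor tiles in WCE (4) became 19 with 10 kb tiles, 1 with 40 kb tiles, 16 at a limit of 0.25, 27 at 0.5, 2 against the chromosome 4 median and 2 with reads of 1 or 2 positions. In the pool (3) it became 13 with 10 kb tiles, 12 at 0.25, 24 at 0.5 and 5 without the WCE library. Counts at other tile sizes cover other numbers of tiles. Called H3K4me3 windows (10) numbered 6 with 20 kb windows and 8 to 15 otherwise. Called H3K27me3 windows (1) numbered 0 with 1 kb windows and 2 against a uniform background. For H3K9me3 the count was 0 under all 10 alternatives. Scaling by 100 kb bins moved the ratio over the tiles that were not read-poor to 2.49 for H3K4me3 and 0.770 for H3K27me3, and the ratios of the 10 called H3K4me3 windows from 3.14 to 25.7 up to 5.50 to 45.1. Against a uniform background these were 2.94 to 22.8. At an adjusted p under 0.01 the windows at 88780001 and 89016001 were no longer called, and the latter also lost its call against the larger of WCE and its mean over 20 kb. That control was chosen after seeing the data. No paired analysis was possible because each group holds 1 library. WCE depth, a median of 2 reads per window, limits how small a difference can be called.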
